A study of Mus musculus with 12 samples.

Results

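Genes of the IL-6 cytokine family, its signal-transducing receptors and the pathway below them were measured in mouse neural stem cells carrying a control or a JMJD3 shRNA, with TGFb or vehicle. The set holds 10 of the 31896 genes named on the array and 14 of its 39429 gene probes. It comprises the ligands Il6, Il11, Lif, Clcf1 and Cntf, the receptors Il6st, Lifr and Osmr, the inhibitor Socs3 and the transcription factor Stat3, each found as the gene probes that the scanner files name by that symbol. All 10 genes and all 14 probes passed the filter on dim probes, which left 24149 genes to test.

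Ligands of this family bind receptor complexes that share the signalling chain gp130, the product of Il6st. Gp130 pairs with itself for IL-6 and IL-11 and with LIFR or OSMR for other members, and the bound complex activates Janus kinases, which phosphorylate Stat3. Stat3 enters the nucleus and switches on genes that include Socs3, whose protein binds gp130 and the Janus kinases and shuts the signal down. In the embryonic cortex the pathway is known for keeping neural precursors from differentiating too early and, later, for driving the formation of astrocytes.

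The cells came from the cerebral cortex of mouse embryos at stage E12.5 and were stably transfected. They formed 4 groups of 3 arrays: JMJD3 shRNA with TGFb at 5 ng/ml for 2.5 h, JMJD3 shRNA with vehicle, random shRNA with TGFb at the same dose and time, and random shRNA with vehicle. JMJD3 is the protein of Kdm6b, a demethylase of histone H3 at lysine 27, and the cells with its shRNA (sh2 JMJD3 in the labels) are called knockdown cells, those with the random shRNA control cells. Each line carried 1 shRNA. The labels do not say whether arrays of a group stem from different cultures, and the spread behind the p-values may thus be technical. RNA was hybridised to 1-colour Agilent arrays, and each level below is the log2 of a probe's background-corrected signal minus that of the array's 75th percentile. A level of 0 therefore lies at the 75th percentile, and levels of different probes cannot be set against each other. A change is the difference of 2 group means, given with the standard error (SE) of a limma fit over all 12 arrays, and a gene was called at an adjusted p under 0.05.

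The 75th percentile ran from 3175 to 4462 scanner units, 70.3% to 78.4% of gene probes were well above background, and no spot was saturated (0 on each array). Arrays of 1 group correlated at 0.993 to 0.998. Kdm6b was lower by 1.40 ± 0.05 log2 units in knockdown than in control cells with TGFb and by 1.16 ± 0.05 with vehicle (SE, n = 3 each; adjusted p = 2.97e-08 and 1.08e-07), which fits the labels. The 8 neural stem cell markers were well above background on all arrays, as were all 6 markers of neurons and all 6 of astrocytes. Well above background on all arrays of a group were also 5 to 6 of 6 oligodendrocyte lineage markers, 5 to 6 of 8 microglia and macrophage markers, 5 of 6 endothelial markers and 4 of 7 fibroblast and meningeal markers, depending on the group. The microglial genes Aif1 and Tyrobp and the endothelial gene Cdh5 were not well above background on any array. The arrays lay on 4 slides, and arrays of different groups deviated together where they shared a slide. Knockdown and control vehicle arrays met on slides 1 to 3, knockdown and control TGFb arrays on slides 3 and 4. TGFb and vehicle arrays of control cells met on slides 2 and 3, and those of knockdown cells on slide 3. Changes within a slide, or with slide as a block in the fit, are therefore given beside the results.

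The promoters of the 3 members that follow are shown because these genes responded to TGFb or are a textbook Stat3 target. Each is a window of 250 bases before to 50 after the transcription start, credited to RefSeq (build GRCm38.p6), written 5′ to 3′ on the gene's strand with every motif match in capitals. The motifs searched, on both strands, were TTCNNNGAA and its form with 1 more base of spacing for Stats, CAGACA and GTCTAGAC for Smads, TGANTCA for AP-1 and TGACGTCA for cyclic AMP response element binding factors. No motif of this list contains another.
Il6, chr5:30012864-30013163, plus strand: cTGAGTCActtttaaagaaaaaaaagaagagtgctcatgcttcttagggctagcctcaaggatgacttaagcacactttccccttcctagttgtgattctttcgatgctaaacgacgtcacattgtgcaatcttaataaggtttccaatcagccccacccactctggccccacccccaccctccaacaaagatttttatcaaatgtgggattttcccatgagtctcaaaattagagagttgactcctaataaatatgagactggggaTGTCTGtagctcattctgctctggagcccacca
Lif, chr11:4257318-4257617, plus strand: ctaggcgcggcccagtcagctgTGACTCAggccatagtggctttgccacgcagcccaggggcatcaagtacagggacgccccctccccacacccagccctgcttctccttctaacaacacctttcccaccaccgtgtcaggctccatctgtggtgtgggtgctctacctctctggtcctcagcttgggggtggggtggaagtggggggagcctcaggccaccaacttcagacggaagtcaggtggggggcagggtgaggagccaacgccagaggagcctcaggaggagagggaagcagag
Socs3, chr11:117969317-117969616, minus strand: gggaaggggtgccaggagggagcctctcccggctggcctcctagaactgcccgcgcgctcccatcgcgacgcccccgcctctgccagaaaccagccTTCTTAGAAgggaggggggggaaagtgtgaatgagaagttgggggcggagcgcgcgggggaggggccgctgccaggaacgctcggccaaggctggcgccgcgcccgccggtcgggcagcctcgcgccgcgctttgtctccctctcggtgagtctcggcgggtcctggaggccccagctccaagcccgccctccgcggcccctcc
The capitals in Il6 mark TGAGTCA at bases -249 to -243 and, on the opposite strand, CAGACA at bases 18 to 23. Those in Lif mark TGACTCA at bases -228 to -222. Those in Socs3 mark the Stat motif TTCTTAGAA at bases -154 to -146. Among the 32851 promoters that RefSeq lists here, 8.3% held TTCNNNGAA, 6.95% its longer form, 21% CAGACA, 0.213% GTCTAGAC, 7.81% TGANTCA and 1.79% TGACGTCA. Of the 10 genes 9 had a listed promoter, with 11 promoters in all. TGANTCA was found in promoters of 5 of these genes, namely Il6, Lif, Il11, Osmr and Cntf, the longer Stat motif in Il11 and Cntf, and CAGACA in Il6 and Lifr. GTCTAGAC and TGACGTCA were in 0 of the 11. A match is a description of letters and not a bound site.

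TGFb, the cytokine whose receptors signal through Smads, moved 2 ligands in opposite directions in both lines, and a receptor and the inhibitor Socs3 were called in knockdown cells as well. In knockdown cells 3 rose (Il6, Lifr and Socs3) and 1 fell (Lif), where 9.47% of all 24149 genes were called, 1143 higher and 1145 lower. In control cells Il6 rose and Lif fell, where 10.1% of all genes were called, 1310 higher and 1140 lower. The filter kept Il6 through the TGFb groups alone, and its rise in knockdown cells was not called in the authors' processed values. The median change of the 10 was -0.12 in knockdown and -0.07 in control cells, beside -0.02 and -0.01 for all genes. The comparisons within 1 line share no array with those in the other.

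**Figure D1:**
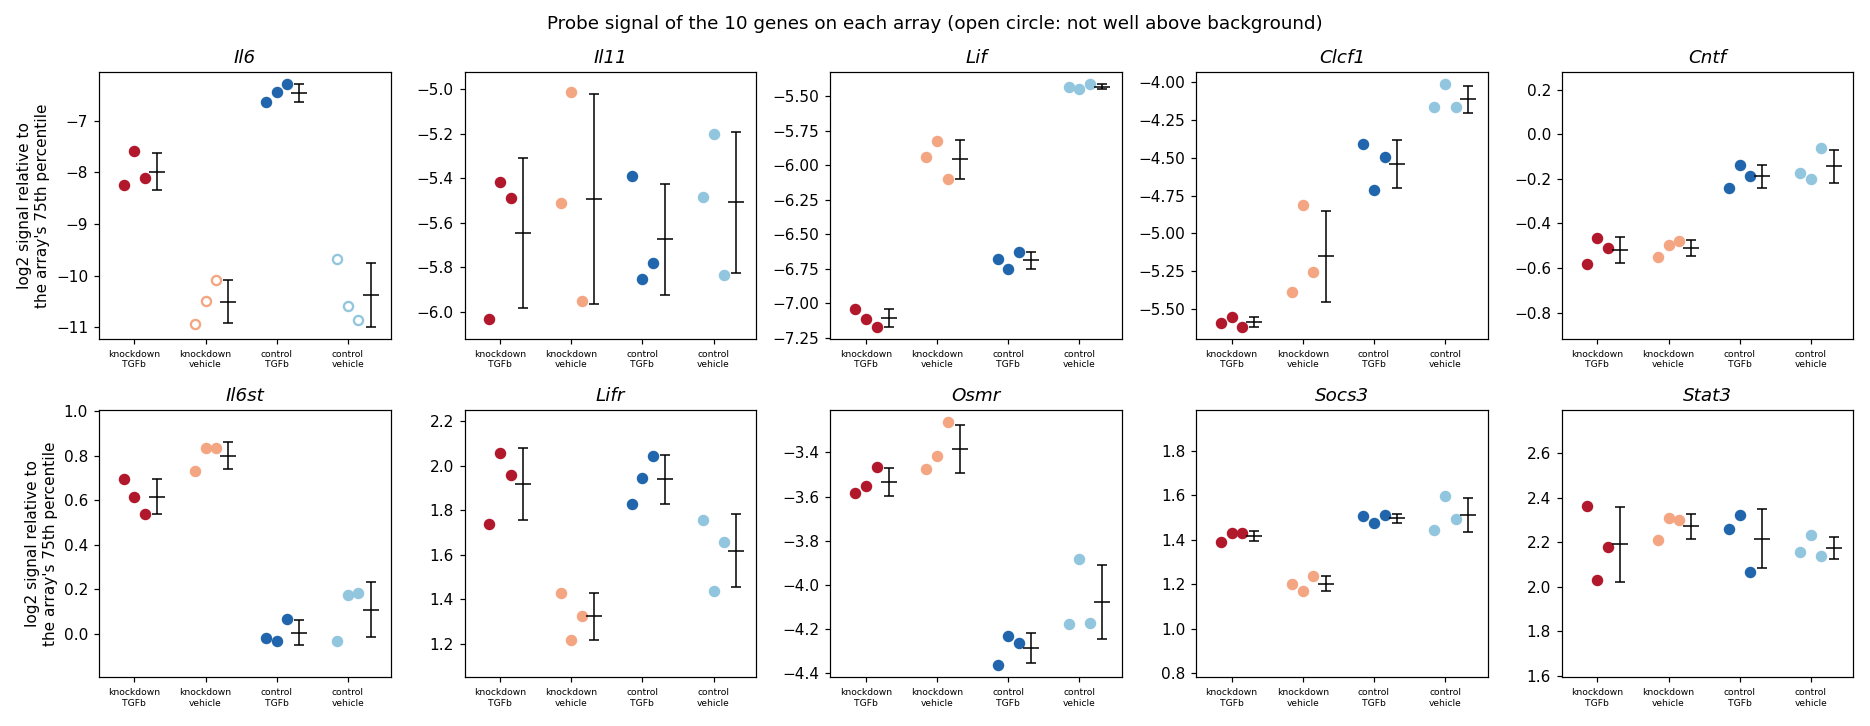
Level of each gene's probe on every array (y axis, log2 of signal over the 75th percentile of its array, scaled by panel) in the 4 groups (x axis), with the group mean and SD (n = 3) beside the points. Open circles mark Il6 on the vehicle arrays, where it was not well above background, and the 4 groups of Lif do not overlap.

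Il6, the interleukin that gives the family its name, stood out from the background with TGFb only. Its probe, at chr5:30346367-30346426 on the plus strand of mm9, was well above background on 3 of 3 TGFb arrays and on 0 of 3 vehicle arrays in each line. In knockdown cells the levels were -8.25, -7.58 and -8.11 with TGFb, against -10.93, -10.50 and -10.08 with vehicle. In control cells they were -6.64, -6.45 and -6.29 with TGFb, against -9.67, -10.58 and -10.86 with vehicle. The TGFb arrays of either line lay above all vehicle arrays, those of control cells lay above those of knockdown cells, and the vehicle groups overlapped. Il6 was therefore kept by the filter through the TGFb groups alone. The fit called it higher with TGFb in both lines, on measured means of -7.98 with TGFb and -10.50 with vehicle in knockdown cells (adjusted p = 0.000732) and of -6.46 and -10.37 in control cells (adjusted p = 1.85e-05). Since a probe not well above background is given only a bound, the rise is stated as at least 1.24-fold in knockdown cells and at least 4.21-fold in control cells. The p-values belong to the measured means and not to these bounds. The bounds set the TGFb mean against the higher, on each vehicle array, of the probe's own signal and the dimmest signal well above background.

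With TGFb, where Il6 was measured in both lines, it was lower by 1.52 ± 0.36 log2 units in knockdown than in control cells (SE, n = 3 each), which is 2.87-fold, with an adjusted p of 0.00795. The change was -1.80 on slide 3 and -1.56 on slide 4, and -1.65 with slide as a block (adjusted p = 0.0122). The knockdown levels with TGFb were -8.25, -7.58 and -8.11. The dimmest signals well above background on those arrays lay not far below, at -8.60, -8.87 and -8.52. Without TGFb Il6 was not well above background in either line, and no fold is given. The difference between the TGFb responses of the lines rests on those dim vehicle arrays, so no size is given, and it was not called (adjusted p = 0.879). The size of the Il6 changes rested on the background correction. With normexp, which models the background and adds an offset, the rise was 0.36 in knockdown (adjusted p = 0.0197) and 0.74 in control cells (adjusted p = 8.1e-05), and the knockdown with TGFb was lower by 0.52 (adjusted p = 0.00076). In the authors' processed values the rise in knockdown cells was 0.23 and was not called (adjusted p = 0.0708).

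Lif, leukemia inhibitory factor, signals through gp130 and LIFR and is used in culture to hold stem cells undifferentiated. It fell with TGFb in both lines and was lower in knockdown cells under both treatments. Its probe lies at chr11:4172032-4172091 on the plus strand of mm9. The levels in knockdown cells were -7.04, -7.11 and -7.17 with TGFb, against -5.94, -5.82 and -6.10 with vehicle. Those in control cells were -6.68, -6.75 and -6.63 with TGFb, against -5.44, -5.45 and -5.41 with vehicle. No 2 groups overlapped, and in rising order they stood as knockdown with TGFb, control with TGFb, knockdown with vehicle and control with vehicle.

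The change of Lif with TGFb was -1.15 ± 0.12 in knockdown cells (2.22-fold lower, adjusted p = 5.5e-05) and -1.26 ± 0.12 in control cells (2.39-fold lower, adjusted p = 2.28e-05; SE, n = 3 each). Within slides it was -0.94 in knockdown cells on slide 3, and -1.23 and -1.34 in control cells on slides 2 and 3. The 2 responses differed by 0.11, with a 95% interval of -0.26 to 0.48 and an adjusted p of 0.962. The size of both TGFb changes of Lif rested on the background correction. With normexp they were -0.35 in knockdown and -0.46 in control cells (adjusted p = 0.0229 and 0.00316). In the authors' processed values they were -0.45 and -0.54 in the same order (adjusted p = 0.000149 and 2.71e-05). Against control cells, knockdown cells had a change of -0.42 ± 0.12 with TGFb (adjusted p = 0.0207) and of -0.52 ± 0.12 with vehicle (adjusted p = 0.00648). The first of these was lost with normexp (-0.18, adjusted p = 0.168), with only the compared groups in the fit (adjusted p = 0.115), and without control TGFb replicate 3, knockdown TGFb replicate 2 or knockdown TGFb replicate 3 (adjusted p = 0.0576, 0.0534 and 0.0706).

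**Figure D2:**
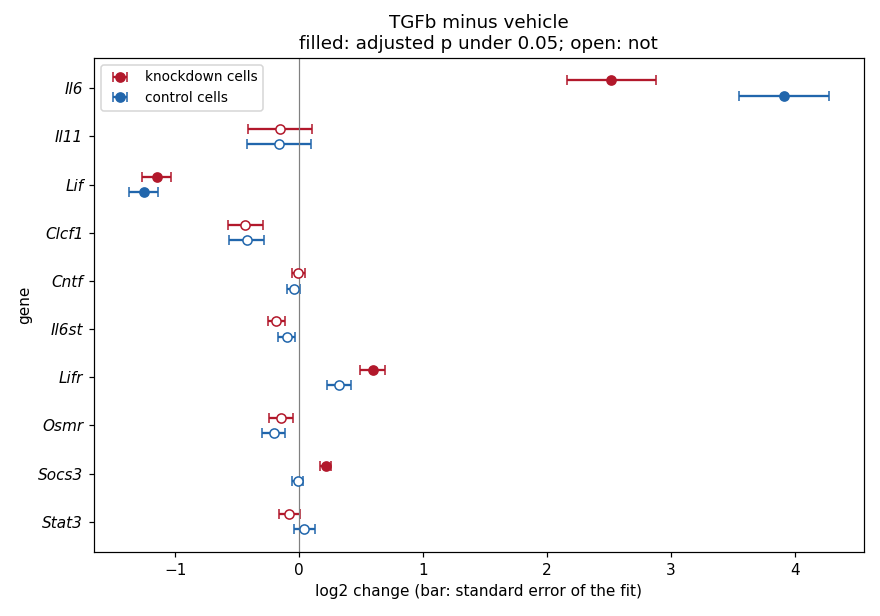
Change with TGFb (x axis, log2 change, TGFb minus vehicle) of each gene (y axis) in knockdown (red) and control (blue) cells, with the SE of the fit as bars and filled points for adjusted p under 0.05. Il6 stands to the right and Lif to the left in both lines. The fitted Il6 values rest on vehicle arrays where it was not well above background and are no measure of fold.

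The other ligands did not pass the test with TGFb. Clcf1, cardiotrophin-like cytokine factor, which acts on the CNTF receptor, had a TGFb change of -0.43 ± 0.14 in knockdown and in control cells alike (adjusted p = 0.0931 and 0.0973). With slide as a block the change in control cells was -0.49 and was called (adjusted p = 0.0191), and it was also called without knockdown vehicle replicate 2 (adjusted p = 0.0288). That in knockdown cells was called without knockdown vehicle replicate 1 (-0.55, adjusted p = 0.0457) and with quantile normalization (-0.48, adjusted p = 0.0467). With array weights both were called, at -0.43 in knockdown and -0.48 in control cells (adjusted p = 0.0251 and 0.0319). Cntf, ciliary neurotrophic factor, changed by -0.01 and -0.04 in knockdown and control cells, and neither value was called. Il11, which like IL-6 signals through a gp130 pair, had levels between -6.03 and -5.01 over all 12 arrays. Its 4 groups overlapped, with TGFb changes of -0.15 (95% interval -0.73 to 0.42) in knockdown and -0.17 (-0.74 to 0.40) in control cells, so that changes of this width could not be told from none.

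Among the receptors and the genes below them, Lifr and Socs3 were called with TGFb, both in knockdown cells. Lifr, the receptor chain that joins gp130 for LIF, had levels of 1.74, 2.06 and 1.96 with TGFb, against 1.43, 1.22 and 1.33 with vehicle, in knockdown cells. In control cells the levels were 1.83, 1.94 and 2.04 with TGFb, against 1.76, 1.44 and 1.66 with vehicle. In neither line did the TGFb and vehicle arrays overlap. The change was 0.59 ± 0.10 in knockdown cells (adjusted p = 0.0024) and 0.32 ± 0.10 in control cells (adjusted p = 0.0742). With slide as a block both were called, at 0.47 (adjusted p = 0.00109) and 0.30 (adjusted p = 0.00493). The change in control cells was also called without knockdown TGFb replicate 1 (adjusted p = 0.0458). The responses of the lines differed by 0.27, with an interval of -0.04 to 0.59, and this was not called.

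These values are those of 1 of the 3 Lifr probes, the brightest, at chr15:7147319-7147378 on the plus strand of mm9. The probe at chr15:7141150-7141209, annotated to the same transcript NM_013584, changed by 0.19 in knockdown and 0.16 in control cells. The probe at chr15:7135072-7135131, annotated to NM_001113386, changed by 0.05 and 0.11 in the same order. All 3 probes had positive TGFb changes in both lines, which differed in size, and neither of the dimmer probes was called in any comparison. The mean of the 3 probes was called in both lines, at 0.28 in knockdown cells (adjusted p = 0.00608) and 0.20 in control cells (adjusted p = 0.0382).

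**Figure D3:**
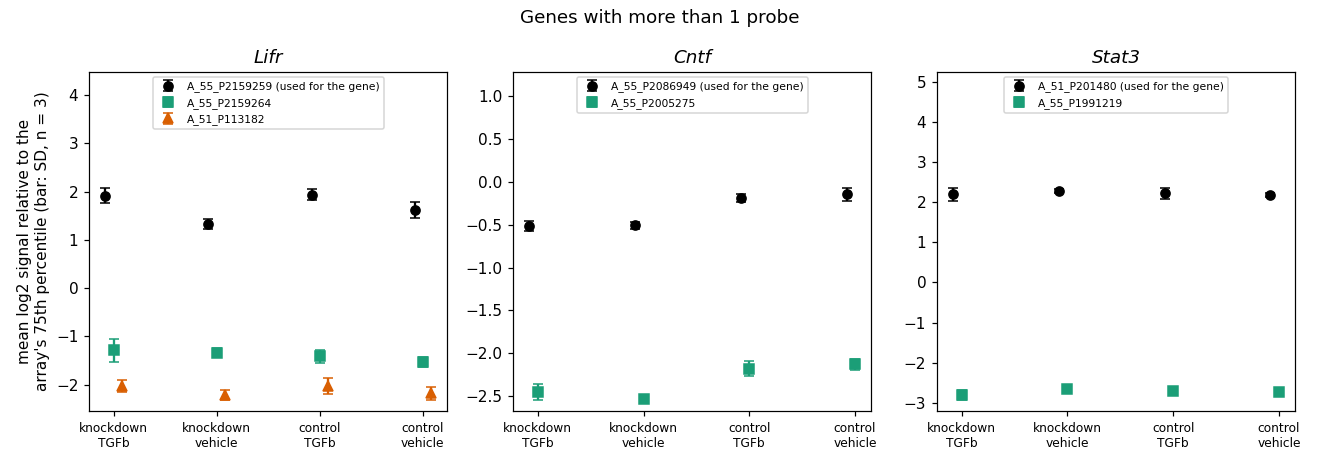
Mean level with SD (n = 3) of every probe (y axis, log2 of signal over the 75th percentile of its array) of the 3 genes with more than 1 probe, in the 4 groups (x axis). The brightest Lifr probe is lowest on knockdown vehicle arrays while its other 2 probes show no called change, both Cntf probes are lower in knockdown cells, and the Stat3 probes show no called change.

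Socs3 had levels of 1.39, 1.43 and 1.43 with TGFb, against 1.20, 1.17 and 1.24 with vehicle, in knockdown cells. Those of control cells were 1.5, 1.47 and 1.51 with TGFb, against 1.44, 1.60 and 1.49 with vehicle. The knockdown vehicle arrays stood below all others, and the control groups overlapped. Its rise with TGFb in knockdown cells was small, at 0.21 ± 0.04 (adjusted p = 0.00905), and the change in control cells was -0.01 ± 0.04 (adjusted p = 0.954). The difference between the responses was 0.23 ± 0.06, with an interval of 0.09 to 0.36, an unadjusted p of 0.00373 and an adjusted p of 0.446. The call in knockdown cells was lost with slide as a block (0.18, adjusted p = 0.079; 0.15 on slide 3), with normexp (adjusted p = 0.085), with scaling on the array median (adjusted p = 0.281) and in the authors' values (adjusted p = 0.0778).

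Stat3 itself was not called in any comparison. Its probe, printed 10 times at chr11:100749598-100749657 on the minus strand of mm9, had levels between 2.03 and 2.36 on all 12 arrays. TGFb changed it by -0.08 (95% interval -0.27 to 0.10) in knockdown cells and 0.04 (-0.14 to 0.23) in control cells, and a second probe was not called either. These are RNA levels, and the phosphorylation that activates Stat3 was not measured. Il6st changed with TGFb by -0.18 and -0.10 and Osmr by -0.15 and -0.21, in knockdown and control cells, with no call. With array weights the Il6st change in knockdown cells was -0.24 and was called (adjusted p = 0.00659).

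The knockdown moved more of the set than TGFb did, and the genes called under both treatments were 3 ligands, all lower, and 2 receptors, both higher. With TGFb 4 of the 10 genes fell (Il6, Lif, Clcf1 and Cntf) and 2 rose (Il6st and Osmr), where 28.9% of all genes were called, 2891 higher and 4086 lower. With vehicle 5 fell (Lif, Clcf1, Cntf, Lifr and Socs3) and the same 2 rose, where 27.8% of all genes were called, 3017 higher and 3694 lower. The median change of the 10 was -0.05 with TGFb and -0.21 with vehicle, beside -0.01 and -0.02 for all genes. With shares called this high over the whole table, the set is read against them. The 2 lines differ throughout by an shRNA and by whatever else separates the cultures, which cannot be told apart.

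The probes of Clcf1, the ligand with the largest change called under both treatments, and of Il6st, the shared receptor, are shown because these genes moved in opposite directions. They are 60 bases long, taken from the scanner files, and have no capitals because no part was singled out.
Clcf1, mm9 chr19:4222480-4222539, plus strand: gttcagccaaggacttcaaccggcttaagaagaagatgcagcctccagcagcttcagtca
Il6st, mm9 chr13:113296586-113296645, plus strand: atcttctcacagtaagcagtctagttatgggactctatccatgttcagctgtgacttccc
Clcf1 had levels of -5.59, -5.55 and -5.62 in knockdown cells with TGFb, against -4.41, -4.72 and -4.49 in control cells with TGFb. With vehicle they were -5.39, -4.81 and -5.26 in knockdown cells, against -4.17, -4.01 and -4.16 in control cells. All 6 knockdown arrays lay below all 6 control arrays. The change was -1.05 ± 0.14 with TGFb (2.07-fold lower, adjusted p = 0.000231) and -1.04 ± 0.14 with vehicle (2.05-fold lower, adjusted p = 0.000248; SE, n = 3 each). Within slides it was -0.88 and -1.09 with TGFb on slides 3 and 4, and -1.22, -0.80 and -1.09 with vehicle on slides 1 to 3. The size depended on the background correction. With normexp the change was -0.68 with TGFb and -0.71 with vehicle (adjusted p = 0.00123 and 0.000931). In the authors' processed values it was -0.70 and -0.66 in the same order (adjusted p = 0.00031 and 0.000463).

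Cntf was lower in the knockdown by a smaller amount. With TGFb its levels were -0.58, -0.46 and -0.51 in knockdown cells, against -0.24, -0.14 and -0.19 in control cells. With vehicle they were -0.55, -0.50 and -0.48 in knockdown cells, against -0.17, -0.20 and -0.06 in control cells. Again the lines did not overlap. The change was -0.33 ± 0.05 with TGFb (adjusted p = 0.000678) and -0.37 ± 0.05 with vehicle (adjusted p = 0.000354), and a second Cntf probe gave -0.27 and -0.40 (adjusted p = 0.0096 and 0.000921). RefSeq also lists a readthrough transcript from the neighbouring Zfp91 into Cntf, so signal on these probes cannot be assigned to Cntf transcripts alone.

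Il6st, the gp130 gene, was higher in knockdown cells under both treatments. With TGFb its levels were 0.70, 0.61 and 0.54 in knockdown cells, against -0.02, -0.03 and 0.07 in control cells. With vehicle they were 0.73, 0.83 and 0.83 in knockdown cells, against -0.03, 0.17 and 0.18 in control cells. Every knockdown array lay above every control array. The rise was 0.61 ± 0.07 with TGFb (1.53-fold, adjusted p = 4.86e-05) and 0.69 ± 0.07 with vehicle (1.62-fold, adjusted p = 1.88e-05), and within slides it ran from 0.51 to 0.77.

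Osmr, the chain that joins gp130 for oncostatin M, rose with it. With TGFb its levels were -3.58, -3.55 and -3.46 in knockdown cells, against -4.37, -4.23 and -4.26 in control cells. With vehicle they were -3.47, -3.42 and -3.26 in knockdown cells, against -4.18, -3.88 and -4.17 in control cells. The 6 knockdown arrays lay above the 6 control arrays. Its change was 0.75 ± 0.10 with TGFb (1.69-fold, adjusted p = 0.000154) and 0.69 ± 0.10 with vehicle (1.62-fold, adjusted p = 0.000275), with within-slide values from 0.47 to 0.91. In cultured cells a lower signal can come from fewer cells that make an RNA or from less RNA in each, and these arrays cannot tell them apart.

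**Figure D4:**
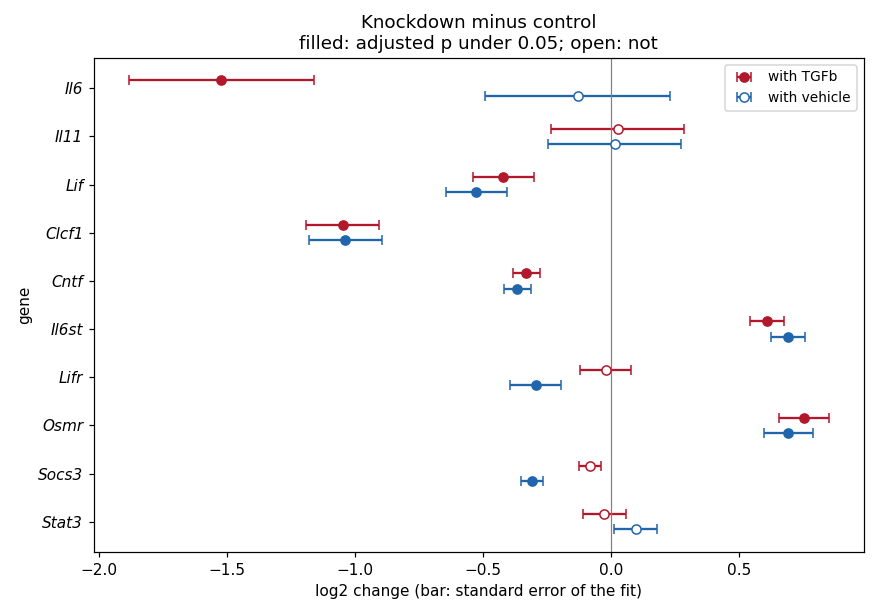
Change with the knockdown (x axis, log2 change, knockdown minus control) of each gene (y axis) with TGFb (red) and with vehicle (blue), with the SE of the fit as bars and filled points for adjusted p under 0.05. Lif, Clcf1 and Cntf lie left of 0 and Il6st and Osmr right of 0 under both treatments.

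The falls of Socs3 and Lifr in the knockdown were called with vehicle alone. These falls and the called TGFb rises of both genes in knockdown cells share the knockdown vehicle arrays, so they are not separate results. Socs3 changed by -0.08 ± 0.04 with TGFb (adjusted p = 0.207) and by -0.31 ± 0.04 with vehicle (adjusted p = 0.000326; -0.24, -0.43 and -0.26 within slides 1 to 3). Lifr changed by -0.02 with TGFb (adjusted p = 0.912) and by -0.29 ± 0.10 with vehicle (adjusted p = 0.0499). This last call sat at the threshold and was lost under 8 other settings, among them the mean of its 3 probes (-0.05, adjusted p = 0.61), and on leaving out any of 7 arrays (adjusted p from 0.0513 to 0.176), namely control vehicle replicates 1 and 3, control TGFb replicates 1 and 2, knockdown vehicle replicates 2 and 3 and knockdown TGFb replicate 3. With slide as a block it held (adjusted p = 0.00104). Il11 changed by 0.03 and 0.02 and Stat3 by -0.03 and 0.10, with TGFb and with vehicle, and none of these was called.

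No member was called for a difference between the TGFb responses of the lines (0 of 10, where 0.0828% of all genes were called). At an unadjusted p under 0.05 limma gave Il6, whose vehicle levels were not well above background, and Socs3. Among all genes tested, 5.09% lay under that unadjusted threshold.

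Of 12 further ligands and receptors of the family 11 were kept, and TGFb called 0 of them in either line. Over all genes TGFb called 9.47% in knockdown and 10.1% in control cells. The knockdown called 28.9% of all genes with TGFb and 27.8% with vehicle. In the knockdown with TGFb Cntfr, the receptor chain that binds CNTF, rose by 0.88 (adjusted p = 0.00131) and no other was called. With vehicle Cntfr rose by 0.59 (adjusted p = 0.0137), Ebi3, a subunit of IL-27, by 0.39 (adjusted p = 0.0486), and Il6ra, which binds IL-6 itself, fell by 1.00 (adjusted p = 0.00216). Il6ra had a change of -0.49 with TGFb (adjusted p = 0.0781). The Cntfr call with vehicle was lost without knockdown vehicle replicate 2 or 3 (adjusted p = 0.0543 and 0.0605), and that of Ebi3 was lost on leaving out any array other than knockdown vehicle replicate 3 (adjusted p from 0.0541 to 0.198).

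Of the 13 Janus kinases, other Stats and adaptors, TGFb raised 1 and lowered 1 in knockdown cells, where 9.47% of all genes were called. In control cells it raised 2 and lowered 1, where 10.1% of all genes were called. Jak2, a kinase on gp130, rose by 0.28 in knockdown and 0.45 in control cells (adjusted p = 0.00279 and 8.09e-05), and Stat2 fell, by log2 changes of -0.37 and -0.27 (adjusted p = 0.00204 and 0.0152). Gab1, an adaptor, rose by 0.34 in control cells (adjusted p = 0.0103). The Stat2 call in control cells was lost without control vehicle replicate 1 or control TGFb replicate 3 (adjusted p = 0.0573 and 0.0591), and that of Jak2 in knockdown cells with normexp, median scaling or the authors' values (adjusted p = 0.0572, 0.12 and 0.0782). The knockdown raised 1 and lowered 5 with TGFb, and raised 2 and lowered 4 with vehicle. Of all genes 28.9% and 27.8% were called there. Jak2 fell (log2 changes of -0.55 and -0.39, adjusted p = 1.23e-05 and 0.000144) and so did Stat5a (-0.76 and -0.79, adjusted p = 0.000173 and 0.000144), with TGFb and with vehicle, while Gab1 rose by 0.39 and 0.55 (adjusted p = 0.00169 and 0.000185). Stat2 (-0.46 and -0.35, adjusted p = 0.00023 and 0.00135) and Stat5b (-0.35 and -0.38, adjusted p = 0.00117 and 0.000588) fell under both treatments too.

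Of the 14 negative regulators other than Socs3, TGFb raised 1 and lowered 3 in knockdown cells, where 9.47% of all genes were called. In control cells it raised 2 and lowered 1, where 10.1% of all genes were called. Socs2, which restrains growth hormone signalling, rose by 1.26 ± 0.06 in knockdown and 1.43 ± 0.06 in control cells (adjusted p = 1.29e-07 and 4.16e-08). Cish, a target of Stat5, fell by 0.38 in knockdown cells (adjusted p = 0.00852) while its control-cell change of -0.25 was not called (adjusted p = 0.0713). In knockdown cells lower calls were also made for Socs5 and Pias4 (-0.37 and -0.29, adjusted p = 0.0398 and 0.0388). In control cells Ptpn2, a phosphatase, rose by 0.24 and Socs6 fell by 0.29 (adjusted p = 0.00658 and 0.0474). The calls of Socs5, Pias4 and Socs6 did not hold on leaving out any of 9, 7 and 10 of the 12 arrays (highest adjusted p 0.165, 0.154 and 0.168). The knockdown raised 2 and lowered 4 with TGFb, and raised 3 and lowered 4 with vehicle. Of all genes 28.9% and 27.8% were called there. Ptpn6, the phosphatase SHP-1, fell (-1.12 and -0.93, adjusted p = 4.77e-05 and 0.000175) and so did Socs7 (-0.49 and -0.57, adjusted p = 0.00134 and 0.000504), with TGFb and with vehicle, while Ptpn1 rose by 0.45 and 0.53 (adjusted p = 0.000257 and 8.43e-05). Socs5 fell under both treatments (-0.40 and -0.30, adjusted p = 0.0106 and 0.0408). Socs1 fell by 0.48 with vehicle (adjusted p = 0.00177) and had a change of -0.20 with TGFb (adjusted p = 0.113).

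Known Stat3 targets moved in both directions with TGFb, and 18 of 19 were kept. In knockdown cells 7 rose and 4 fell, and in control cells 6 rose and 4 fell, with medians of 0.04 and 0.01. Over all genes 9.47% and 10.1% were called, in the same order. The list was chosen with earlier results of these data known. The kinase gene Pim1 rose by 1.37 in knockdown and 1.76 in control cells (adjusted p = 6.29e-05 and 7.37e-06), and Myc fell (-1.40 and -1.83, adjusted p = 1.17e-06 and 1.02e-07). Cebpd, a transcription factor, fell in both as well (-1.06 and -1.05, adjusted p = 1.75e-05 and 1.66e-05). Junb rose by 1.21 in knockdown and 0.70 in control cells (adjusted p = 0.000299 and 0.0128), and Gfap, the filament protein of astrocytes, rose by 0.46 and 0.93 (adjusted p = 0.0181 and 9.75e-05). Many of these genes also have other regulators.

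In the knockdown 4 of the Stat3 targets rose and 6 fell with TGFb, and 4 rose and 8 fell with vehicle, with medians of -0.08 and -0.18. Of all genes 28.9% and 27.8% were called, with TGFb and with vehicle. Ccnd1, cyclin D1, fell (-0.89 and -0.79, adjusted p = 6.22e-07 and 1.38e-06), with TGFb and with vehicle. Serpina3n, a protease inhibitor of a family of close paralogs, was called lower at fitted changes of -1.18 and -1.30 (adjusted p = 0.00454 and 0.00259). It was well above background on 2 and 1 of the 3 knockdown arrays and on 3 of 3 control arrays. The filter therefore kept it through the control groups alone, and the calls and their sizes rest in part on dim spots. Rises called with TGFb and with vehicle were 1.03 and 0.54 for Fos (adjusted p = 1.65e-05 and 0.00148) and 0.62 and 0.46 for Vegfa (adjusted p = 0.00033 and 0.00251). Those of Gfap were 0.50 and 0.98 (adjusted p = 0.00407 and 4.51e-05) and those of Bcl3 0.52 and 0.92 (adjusted p = 0.0245 and 0.000866). Gfap is also on the list of 6 astrocyte markers, of which 2 rose and 0 fell in the knockdown under either treatment. The summed astrocyte signal was 407% to 483% of the array's 75th percentile in knockdown and 432% to 463% in control cells with TGFb, and 386% to 412% and 384% to 416% with vehicle, and its part in these changes was not tested. The summed signal of 7 fibroblast and meningeal markers was 380% to 404% in knockdown and 323% to 374% in control cells with TGFb, and 418% to 476% and 341% to 383% with vehicle. The summed signal of 6 neuron markers was 1292% to 1454% in knockdown and 1189% to 1246% in control cells with TGFb, and 1397% to 1488% and 1281% to 1455% with vehicle, and of them 3 rose and 1 fell with TGFb, 2 rose and 1 fell with vehicle. Of the fibroblast and meningeal markers 4 were kept, and the knockdown raised 0 and lowered 0 with TGFb and raised 1 and lowered 1 with vehicle. The 8 neural stem cell markers summed to 25633% to 27698% in knockdown and 22964% to 25431% in control cells with TGFb. With vehicle they summed to 23597% to 26407% and 24517% to 26250%. Of them 3 rose and 1 fell with TGFb, 3 rose and 2 fell with vehicle. Of 6 kept microglia and macrophage markers 1 rose and 0 fell under either treatment. Of 6 oligodendrocyte lineage markers 0 rose and 1 fell with TGFb, 1 rose and 1 fell with vehicle. Of 5 kept endothelial markers 0 rose and 0 fell. The part of these markers in the changes of Il6st, Osmr and the ligands was not tested.

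**Figure D5:**
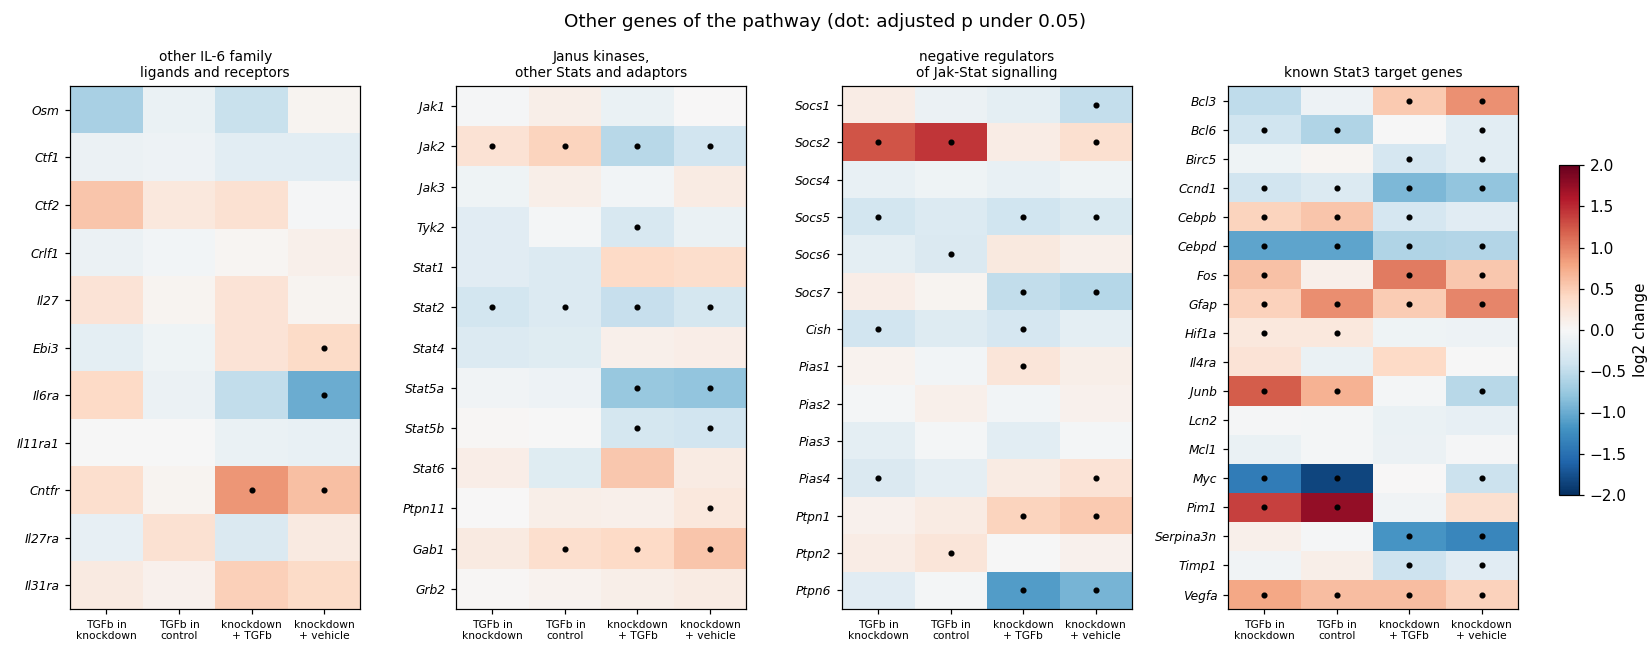
Log2 change of the kept genes of 4 pathway lists (rows) in 4 comparisons (columns: TGFb minus vehicle in knockdown and in control cells, knockdown minus control with TGFb and with vehicle), with red for higher, blue for lower and a dot for adjusted p under 0.05. Socs2 and Pim1 are red and Myc and Cebpd blue in both TGFb columns, while Ptpn6, Stat5a, Serpina3n and Ccnd1 are blue in both knockdown columns. Serpina3n was kept by the filter through the control groups alone.

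The genes whose levels followed 3 of the members most closely over the 12 arrays were also listed. Pearson correlations with Il6 were 0.989 for Gm22, 0.977 for Fbxo10 and 0.976 for Plekhs1. These rest in part on the vehicle arrays, where Il6 was not well above background. With Lif they were 0.988 for Nr5a2, and 0.992 and 0.991 for 2 probes known by transcript identifier. With Socs3 they were 0.935 for a probe with no gene name, 0.929 for Rnf11 and 0.915 for a further transcript identifier. The arrays form 4 groups and share slides, so these values describe these 12 arrays and carry no test.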

How the data were processed

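Total RNA of 12 samples was labelled with Cy3 and hybridised to 1-colour Agilent arrays, per the labels. Per the file headers, the scanner software was Agilent Feature Extraction 10.7.3.1, and mm9 is the build of the probe positions. The deposited intensity of each spot is on a linear scale and was background-corrected by that software, per the file headers. The spot flags used (well above background, saturated, outlier) are deposited values of 0 or 1. The authors' table of processed values, in log2, served as an alternative. The authors' background correction for it is not given in the sources used here.

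Control spots were left out, and so were outlier spots, except where every spot of a probe was flagged on an array, as with a single flagged spot. Spots of 1 probe were averaged, and the log2 of each array's 75th percentile was subtracted from log2 signals. A probe was kept if any group had it well above background on 3 of 3 arrays, and the brightest kept probe stood for its gene. Symbols were updated through RefSeq accessions (GRCm38.p6) for 26049 of 39429 probes. One limma 3.58.1 fit in R 4.3.3 (lmFit, contrasts.fit, eBayes with a trend) over the 12 arrays, with 8 residual and 3.08 prior degrees of freedom, gave 5 two-sided comparisons, with Benjamini-Hochberg adjustment over all 24149 genes and a threshold of 0.05. It was tested on simulated data. The 3 arrays per group limit the precision: the median SE was 0.10 for 2 groups and 0.14 for the difference of responses.

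The members, lists and motifs were chosen with earlier results of these data known. Named were every member, Kdm6b, up to 4 called genes per list and comparison with the largest change, and the 3 genes most correlated with each of Il6, Lif and Socs3. Replicate numbers did not pair the samples: of 18 pairs of arrays with the same number 4 had deviations from the group means that correlated above 0.1, against 12 of 12 pairs on 1 slide. Alternatives covered background correction (normexp with an offset of 50), scaling, filter, probe rule, slide and replicate blocks, array weights, trend, groups in the fit, a 1.5-fold threshold, the authors' values, and leaving out every array in turn.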

Additional observations from a re-analysis of the deposited data

How the results depend on the processing

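Of 10 members, those called for TGFb in knockdown cells numbered 4, with 2 in the authors' processed values, 5 with quantile normalization and 6 with array weights. For TGFb in control cells 2 were called, 1 when probes had to be well above background on all 12 arrays, which removes Il6, and 4 with slide as a block or with array weights. For the knockdown without TGFb 7 were called, and 3 when a change of at least 1.5-fold was also required. The share of all genes called under that 1.5-fold requirement is not given, and the ranges of shares below do not include it. The drop from 7 to 3 can therefore not be read against all genes. Leaving out 1 array at a time gave 4 to 5 for TGFb in knockdown cells, 2 to 3 in control cells, 5 to 6 for the knockdown with TGFb, 6 to 7 without it, and 0 for the difference of responses. With the replicate number as a block, which the data did not support as a pairing, the counts were 4, 2, 6, 6 and 0 in the same order, and the call lost was that of Lifr without TGFb (adjusted p = 0.0806). No called change of a member or named gene took the other sign under any of these settings. Over all genes the share called for TGFb in knockdown cells ran from 6.05% with median scaling to 21.8% with array weights, in control cells from 6.77% to 12.8%, for the knockdown with TGFb from 19.9% to 43.8% and without it from 17.9% to 37.5%. For the difference of responses it ran from 0.0166% (4 genes, without control vehicle replicate 3 or knockdown TGFb replicate 3) to 0.389% (94 genes, with array weights). Of the genes called for TGFb in knockdown cells 50% were higher, against 59.2% with normexp. Among the pathway genes the calls of Socs6, Ptpn2, Socs5 and Pias4 with TGFb and of Ebi3 in the knockdown were each lost under several settings, and the cause was not tested. Signal over background limits Il6, whose vehicle arrays were all dim. The sizes of the Lif and Clcf1 changes also varied with the background correction.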
